A study of Mus musculus with 14 samples.

Results

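Pressure overload was followed here in hearts that lack Hspb8, the gene for the small heat shock protein Hsp22. The comparison took 7 of the 14 arrays in the series: the 4 left ventricular arrays of knockout mice operated on 3 days earlier by transverse aortic constriction (TAC) and the 3 arrays of knockout mice at baseline, both chosen by their sample titles. All mice were male C57BL/6, and the remaining 7 arrays were the matching wild-type groups, 3 basal and 4 after TAC. TAC narrows the aorta just beyond the heart, so that the left ventricle ejects against a raised pressure. The samples included no sham-operated group. By the names of their files, the basal arrays carry dates long before those of the TAC hearts, 1 basal knockout array with a day of its own among them, so surgery, its after-effects and the time of the assay cannot be told apart in what follows. Which part of Hspb8 was removed was not stated. Whether every array stands for its own mouse was not stated either, so a p-value here measures the spread between these samples, which may be technical in part. Of the annotated genes on the array, 12260 were bright enough to be tested.

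Hsp22 works with the co-chaperone Bag3 and with Hsp70 to sort damaged or stretched proteins for refolding or autophagy, and in the heart it is known as a stress-induced protein that promotes growth and survival signalling and mitochondrial function. A ventricle placed under pressure overload typically returns to a fetal-like program of peptides and contractile isoforms, builds protein and matrix, recruits macrophages, and turns down the genes for burning fatty acids. Tissue RNA mixes all cells of the ventricle: fewer cells of a type and less RNA per cell cannot be told apart, and neither can more cells and more RNA per cell.

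Expression is given on the log2 scale, 1 value per probe set (a group of probes for a transcript) and array. A gene was said to pass with an adjusted p under 0.05 in limma, with Benjamini-Hochberg adjustment over the 12260 genes, and "rose" and "fell" are used only of genes that passed. A fold is written "at least" where the lower group's mean lay under the median of the whole table, 5.75, since dim probe sets understate a change. Each difference is TAC minus basal in the knockout, from 3 and 4 arrays, with the model's standard error (SE). Arrays are given in replicate order, 3 basal and then 4 TAC, and replicates of one group have no other order.

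The genotype labels were checked on Hspb8 itself. On the probe set 1417013_at it read 5.13, 4.97 and 4.40 in the basal knockout arrays and 5.02, 4.97, 4.69 and 4.27 in the TAC knockout arrays, against 11.09 to 12.29 in the wild-type arrays. The probe set 1417014_at read 5.10 to 5.92 over the knockout arrays. The last probe set, 1456434_x_at, was lower by less: it read 8.42 to 8.84 in basal knockout against 9.66 to 10.01 in basal wild-type arrays (-1.08, SE 0.17) and 8.20 to 8.73 against 8.79 to 9.32 after TAC (-0.60, SE 0.15). Neither group overlapped, but neither difference passed (adjusted p = 0.213 and 0.327 in limma over all probe sets), and its class of probe sets can bind other transcripts. None of the 3 passed between basal and TAC knockout hearts. The 3 prime minus 5 prime difference of Actb was 0.23 to 0.33 in the basal knockout arrays and 0.31 to 0.39 in the TAC knockout arrays. Other array checks did not overlap between these groups. That of Gapdh was 0 in the basal and -0.11 to -0.03 in the TAC knockout arrays. The poly-A spike controls read 3.91 to 4.08 in the basal and 3.66 to 3.80 in the TAC knockout arrays. The upper quartile of all probe sets was 7.63 to 7.66 in the basal and 7.71 to 7.81 in the TAC knockout arrays. The CreX spike controls differed by run, reading 12.85 to 13 in the basal and 13.28 to 13.41 in the TAC knockout arrays. Across genes, which are not replicates, basal knockout arrays correlated with r of 0.986 to 0.988 and TAC knockout arrays with r of 0.970 to 0.991.

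Of the 12260 genes, 5451 passed (44.5%), 2781 of them higher after TAC (22.7%) and 2670 lower (21.8%). The rises were larger than the falls: 824 genes rose and 325 fell by 2-fold or more, 129 rose and 12 fell by 4-fold or more, and 24 rose and none fell by 8-fold or more. Over all genes tested the median difference was -0.02. In 54.3% of the genes the 3 basal and the 4 TAC arrays did not overlap. The wild-type comparison called 50.7% of the genes. With so much of the array moved, a gene group is described below by how many of its measured members rose and fell, to be read against the 22.7% and 21.8% of all genes, and by its median. Leaving out 1 of the 7 knockout arrays at a time left 4091 to 5306 genes, and a call that was lost in this way is marked below as less firm, with the highest adjusted p.

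**Figure D1:**
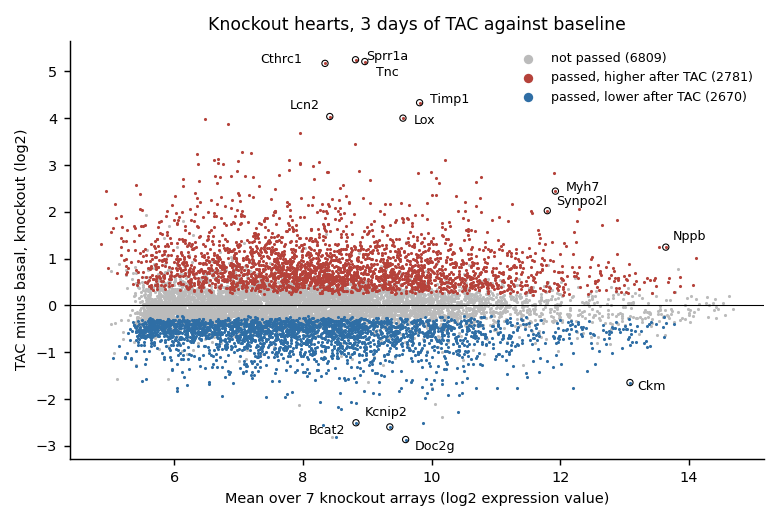
Difference between TAC and basal knockout hearts (log2, y axis) against the mean log2 value over the 7 knockout arrays (x axis), 1 point per gene of the 12260 tested, coloured where a gene passed. The points reach higher above 0 than below it: Sprr1a, Tnc and Cthrc1 lie above 5, and no gene lies below -3.

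Sprr1a, Tnc and Cthrc1 rose furthest. Sprr1a, a small proline-rich protein first known from skin that is also induced in stressed cardiomyocytes, read 5.68, 6.05 and 5.72 in the basal arrays and 9.75, 12.15, 10.67 and 11.70 after TAC (log2 difference 5.25, SE 1.06, adjusted p = 0.00221), a 38.1-fold rise. The lowest TAC array lay 3.70 above the highest basal array. Tnc, the matrix protein tenascin-C, read 6.00, 6.23 and 5.72 in the basal arrays and 10.63, 11.18, 11.33 and 11.64 after TAC (5.21, adjusted p = 0.000171). Cthrc1, a secreted protein of activated fibroblasts, read 5.63, 5.21 and 5.32 in the basal arrays and 10.34, 11.03, 10.49 and 10.38 after TAC, a rise of at least 36.1-fold. The groups lay far apart in each, and only these 3 genes rose by more than 30-fold. Further rises above 10-fold were those of Timp1 (20.2-fold), Lcn2 (16.4-fold), Lox (16-fold), Chil3 (at least 15.7-fold), Cxcr6 (at least 14.8-fold), Serpinb1a (12.8-fold) and S100a4 (11-fold). Cxcr6 varied most of these among the TAC arrays, which read 7.03, 8.37, 7.70 and 10.88. The division genes Anln (3.14), Cks2 (3.08) and Pclaf (3.01) and Evi2a (3.05), Ms4a6d (3.05) and Zfp697 (3.06) were also among the 25 largest rises, which held Top2a, Mki67, Rrm2, Ccnb2, Adam12, Arg1, Col8a1, Ptn and Ltbp2 as well.

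Doc2g, Ces1d and Kcnip2 fell furthest. Doc2g, a relative of the calcium sensors of vesicle release, read 11.37, 11.12 and 11.21 in the basal arrays and 9.61, 8.01, 8.55 and 7.30 after TAC (log2 difference -2.87, SE 0.53, adjusted p = 0.00142), 7.29-fold lower. Ces1d, a carboxylesterase of lipid breakdown, read 10.31, 9.27 and 10.79 in the basal arrays and 8.68, 6.84, 6.93 and 6.81 after TAC (-2.81, adjusted p = 0.00322). Kcnip2, the subunit that gives the fast transient outward potassium current, read 11.03, 10.80 and 10.67 in the basal arrays and 9.56, 8.56, 8.59 and 6.24 after TAC (-2.60, adjusted p = 0.0114). No basal and TAC arrays overlapped in these 3, but the TAC arrays spread widely, with TAC array 1 nearest to baseline and TAC array 4 furthest in each. Dhrs7c, a sarcoplasmic reticulum dehydrogenase, read 11.65, 11.38 and 10.88 in the basal arrays and 9.93, 9.28, 8.81 and 7.15 after TAC (-2.51), with TAC arrays 1 and 4 again at the ends. Others of the 25 largest falls were Rpl3l (-2.28), the striated-muscle form of a ribosomal protein, the ankyrin-repeat ubiquitin ligase subunits Asb14 (-2.22) and Asb10 (-1.82), the mitochondrial carrier Slc25a34 (-1.92), Thrsp (-1.90), a regulator of lipid synthesis, the myosin kinase Mylk4 (-2.07), the protease Htra3 (-1.88), Ift81 (-1.91), Lgals4 (-1.89), Csdc2 (-1.88), Wnk2 (-1.86) and Pkd2l2 (-1.82), and Tnxb, Bcat2, Stard10, Scara5, Fbln1, Myh7b, Eif4ebp2 and Fkbp4 belonged to them too. Asb14, Mylk4, Lgals4 and Pkd2l2 were less firm, with adjusted p up to 0.0738, 0.125, 0.0675 and 0.0505 without single arrays. The probe sets not used read -0.41 and 0.28 for Htra3, -0.43 for Wnk2 and -1.416 and -0.043 for Thrsp. Alas2, the haem synthesis enzyme of red cells and the only measured member of the erythroid list, read 9.55, 9.71 and 9.67 in the basal arrays and 8.15, 6.75, 8.32 and 7.86 after TAC (-1.87).

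Load-sensing genes of the Z-disc rose. Of the 24 measured members of a list of Z-disc and stretch-response genes, 10 rose and 1 fell, with a median of 0.43. Synpo2l, an actin-bundling protein of the Z-disc, had the smallest p of all genes: it read 10.61, 10.49 and 10.82 in the basal arrays and 12.66, 12.53, 12.69 and 12.78 after TAC (log2 difference 2.02, SE 0.14, adjusted p = 1.11e-05), 4.07-fold higher. The 4 TAC arrays spanned 0.25 and all lay above the basal arrays. Synpo2l had 4 probe sets, and those not used read from -0.125 to 2.665. Fhl1, a LIM-domain sensor of stretch on titin, read 11.42, 11.88 and 11.69 in the basal arrays and 13.10, 13.23, 13.42 and 13.74 after TAC (1.71, adjusted p = 5.47e-05). The filamin Flnc, a client of the Bag3 and Hsp22 machinery, read 10.19, 10.29 and 10.20 in the basal arrays and 11.25, 11.43, 11.52 and 12.30 after TAC (1.40, adjusted p = 0.000399), and did not overlap either. The other probe set of Fhl1 read 0.11. Ankrd1 (1.01), a titin-bound ankyrin-repeat protein, Enah (1.30), an actin regulator of the intercalated disc, Csrp3 (0.61), the muscle LIM protein, and Pdlim5 (0.73) also rose. Ldb3, the Z-disc protein Cypher, was the member that fell (-0.92, adjusted p = 0.00415). Its dimmer probe sets read -0.18 and 0.28, and with the mean of probe sets Ldb3 did not pass (adjusted p = 0.0842 in limma).

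Among 7 measured natriuretic peptide genes and their processing enzymes and receptors, 1 rose and 1 fell. Nppb, the B-type natriuretic peptide released by stretched ventricle, read 13.03, 12.76 and 12.99 in the basal arrays and 14.13, 14.02, 14.22 and 14.32 after TAC (log2 difference 1.25, SE 0.13, adjusted p = 9.45e-05), 2.37-fold higher, with no overlap. Nppa, the atrial peptide, did not pass, at 13.47, 12.65 and 14.04 in the basal arrays and 13.71, 14.26, 14.23 and 14.45 after TAC (adjusted p = 0.0699); its basal arrays spanned 1.39. The convertase Pcsk6 fell (-1.06).

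Sarcomere genes passed less often than genes in general, 30.8% of the list against 44.5%. Of the 26 measured members of the sarcomere list, 1 rose and 7 fell, with a median of -0.17. The share that fell was not far from the 21.8% of all genes. The riser was Myh7, the slow beta myosin heavy chain of the fetal ventricle, at 10.71, 10.36 and 10.51 in the basal arrays and 13.45, 12.73, 12.98 and 12.72 after TAC (log2 difference 2.44, SE 0.59, adjusted p = 0.00565), 5.44-fold higher without overlap. Its adult partner Myh6 read 14.42, 14.47 and 14.44 in the basal arrays and 14.43, 14.40, 14.27 and 14.28 after TAC, which overlapped (adjusted p = 0.475), and Acta1, the skeletal actin of the fetal program, did not pass either, at 13.59, 13.93 and 13.30 in the basal arrays and 14.03, 13.65, 14.08 and 13.84 after TAC (0.29, adjusted p = 0.457), which overlapped as well. Myh6 lay at the bright end of the array, where brightness can level off. Its dimmer probe set read -0.85, and with the mean of probe sets Myh6 passed (adjusted p = 0.0414 in limma). Of the fallers, the slow skeletal troponin Tnni1 (-0.72), the slow-tonic myosin Myh7b (-1.96) and the filament cap Tmod1 (-0.40) kept the call without any 1 array. Mylk4, its relative Mylk3, Mybpc3 and the atrial Mybphl were less firm (adjusted p up to 0.141).

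Calcium handling genes passed no more often than genes in general. Of 22 measured, 3 rose and 5 fell (3 without basal array 1), with a median near 0. Slc8a1, the sodium-calcium exchanger, read 8.60, 8.40 and 8.20 in the basal arrays and 8.97, 9.62, 9.46 and 10.62 after TAC (log2 difference 1.27, SE 0.35, adjusted p = 0.0125), 2.41-fold higher without overlap. Hrc, the calcium buffer of the sarcoplasmic reticulum, read 13.16, 13.15 and 13.31 in the basal arrays and 12.43, 11.22, 11.60 and 10.54 after TAC (-1.76, adjusted p = 0.0143), with TAC array 4 lowest. Fkbp1b (0.75), which binds the release channel, rose, and Dhrs7c and Ppp1r1a (-0.44), the phosphatase inhibitor, fell. S100a1, Jph2 and Srl were less firm (adjusted p up to 0.129). The calcium pump Atp2a2 (-0.04, adjusted p = 0.803), its inhibitor Pln (adjusted p = 0.995) and the release channel Ryr2 (0.20, adjusted p = 0.339) did not pass, but a dimmer probe set of Ryr2 fell (-0.94). Atp2a2 had 6 probe sets, and those not used read from -1.08 to -0.04. The one used lay at the bright end of the array, at 14.22 to 14.53 after TAC, where brightness can level off. Ion channel genes fell more often: 9 of 20 measured fell and 2 rose, with a median of -0.59. The 2 risers were the connexins Gja1, at 12.37, 12.45 and 12.45 in the basal arrays and 13.05, 13.21, 13.04 and 12.99 after TAC (0.65, adjusted p = 0.000812), and Gjc1 (0.39). The fallers were the potassium channel genes Kcnj11 (-0.81), Kcnk3 (-0.94), Kcna5 (-0.90), Kcnj3 (-1.51), Kcnv2 (-1.25) and Kcnip2 and, less firmly, Kcnd2, the pacemaker channel Hcn2 and the sodium channel subunit Scn4b (adjusted p up to 0.133). In the list of adrenergic, angiotensin and endothelin signalling, 7 of 14 measured members fell and 2 rose. The adrenoceptor Adra1b (7.40, 7.35 and 7.64 in the basal arrays and 6.13, 6.32, 6.31 and 6.32 after TAC; log2 difference -1.19), the cyclases Adcy5 (-0.65) and Adcy6 (-0.63) and the G protein Gnas (-0.50) fell, as did Ace (-1.01), the angiotensin-converting enzyme. The receptor kinase Grk5 (1.14) rose, as did, less firmly, the endothelin gene Edn1 (adjusted p up to 0.128).

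Fatty acid genes fell. Of the 32 measured genes of fatty acid uptake and oxidation, 20 fell and none rose, with a median of -0.75. Acads, the short-chain acyl-CoA dehydrogenase, read 11.39, 11.41 and 11.39 in the basal arrays and 10.27, 9.66, 9.81 and 9.32 after TAC (log2 difference -1.63, SE 0.24, adjusted p = 0.000443), 3.10-fold lower. Hadha, the alpha subunit of the trifunctional protein, read 13.20, 13.17 and 13.26 in the basal arrays and 12.28, 11.73, 11.66 and 11.55 after TAC (-1.41, adjusted p = 0.00267), and Cpt2, the inner carnitine palmitoyltransferase, read 12.16, 12.33 and 12.40 in the basal arrays and 11.17, 10.89, 10.84 and 10.52 after TAC (-1.44, adjusted p = 0.00468). In all 3 the basal arrays lay within 0.24 of each other, TAC array 1 was the highest of the TAC arrays and TAC array 4 the lowest. Acacb (-1.78) and Mlycd (-1.34), which make and destroy the malonyl-CoA that gates entry of fatty acids, fell together, and so did the lipases Pnpla2 (-1.15) and Lipe (-0.96). The lipase Lpl (0.03, adjusted p = 0.842) and the receptor Cd36 (-0.03, adjusted p = 0.914), which bring fatty acids to the cell, did not pass. Averaged over the 32 genes, the 4 TAC arrays read 11.40, 11.05, 11.07 and 10.91 and the 3 basal arrays 11.85 to 11.97. The half-site of estrogen-related receptors, TCAAGGTCA on either strand, was found before the start of none of the 28 listed genes with a RefSeq promoter and of 0.335% of the tested genes. Without basal array 1 the list's count was 13 and without basal array 3 it was 12.

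Breakdown of branched-chain amino acids fell in the same way, with 15 of 22 measured genes lower, none higher, and a median of -0.70. Bcat2, the transaminase of the first step, read 10.72, 10.68 and 9.37 in the basal arrays and 7.89, 7.76, 7.69 and 7.66 after TAC (log2 difference -2.51, SE 0.41, adjusted p = 0.000734), 5.68-fold lower. The TAC arrays lay within 0.23 of each other, while basal array 3 lay over 1 below the other basal arrays. Bckdha, a subunit of the dehydrogenase of the second step, read 10.99, 10.76 and 11.07 in the basal arrays and 9.94, 9.12, 9.42 and 8.93 after TAC (-1.59), and the kinase that restrains it, Bckdk (-0.67), fell too. Klf15, a transcription factor that drives this pathway in muscle, fell by 1.49 on the log2 scale, and the later enzymes Auh (-1.36) and Pccb (-0.92) fell. Without basal array 3, 9 of the 22 fell.

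The regulators of these fuels fell with them. Among 20 measured PGC-1 coactivators and metabolic nuclear receptors, 11 fell and 1 rose, with a median of -0.52. Ppard, a fatty acid receptor, read 7.33, 7.31 and 7.31 in the basal arrays and 5.94, 6.13, 6.18 and 6.37 after TAC (log2 difference -1.16, SE 0.11, adjusted p = 5.47e-05), 2.24-fold lower, and its basal arrays differed by only 0.02. Ppargc1a, the master coactivator of mitochondrial genes, read 10.98, 10.73 and 11.68 in the basal arrays and 9.95, 9.21, 9.72 and 8.89 after TAC (-1.69, adjusted p = 0.00806), and Ppara read 10.39, 10.00 and 10.15 in the basal arrays and 9.19, 8.37, 9.06 and 8.50 after TAC (-1.40, adjusted p = 0.0178). No arrays overlapped in these 3, and Ppara was less firm (adjusted p = 0.0615 without basal array 1). Esrra (-0.64), the estrogen-related receptor that acts with PGC-1, the retinoid X receptors Rxrg (-1.49), Rxra (-0.82) and Rxrb (-0.64), Ppargc1b (-0.59) and the thyroid receptor Thra (-0.58) fell as well. On their other probe sets Ppard read -0.17, Rxra -0.02 and Esrra 0.25. With the mean of probe sets Esrra did not pass (adjusted p = 0.257 in limma). Gabpa, a nuclear respiratory factor, was the one that rose, less firmly (0.50, adjusted p up to 0.0654 without single arrays). Of 7 sirtuins, 3 fell and none rose: Sirt3 (-1.21), the main mitochondrial deacetylase, Sirt2 (-0.50) and, less firmly, Sirt4 (adjusted p up to 0.0753).

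Genes of complex I and of the citric acid cycle fell in part. Of 33 measured complex I subunits, 14 fell and none rose (median -0.40); of 42 subunits of complexes II to V, 11 fell and 1 rose (median -0.28), close to the 21.8% of all genes that fell; and of 24 genes of the citric acid cycle and pyruvate entry, 11 fell and none rose (median -0.40). These counts rested on single arrays: without one of the 7 at a time, 3 to 18 complex I genes (fewest without basal array 1), 3 to 16 genes of complexes II to V (fewest without basal array 3) and 6 to 13 cycle genes (fewest without basal array 2) fell. Ndufs7, a subunit of the electron path of complex I, read 13.18, 13.13 and 13.17 in the basal arrays and 12.65, 12.39, 12.54 and 12.25 after TAC (-0.70, adjusted p = 0.00375). Uqcrc1, a core protein of complex III, read 13.48, 13.44 and 13.50 in the basal arrays and 12.86, 12.43, 12.62 and 12.35 after TAC (-0.91, adjusted p = 0.00285). Both sets of arrays stood apart, though by less than in the fatty acid genes. Cox6a1, the form of its subunit found outside muscle, was the riser, at 12.30, 12.11 and 12.17 in the basal arrays and 12.75, 12.84, 13.02 and 13.12 after TAC (0.74, adjusted p = 0.00109). Pdk2, the kinase that shuts pyruvate dehydrogenase, fell furthest of the cycle and entry genes, at 11.72, 11.65 and 11.73 in the basal arrays and 10.50, 9.88, 10.00 and 9.33 after TAC (-1.77, adjusted p = 0.00152).

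Glucose genes divided by isoform. Of 25 measured genes of glucose uptake, glycolysis and glycogen, 6 rose and 13 fell. Slc2a1, the transporter GLUT1 that works without insulin, read 7.44, 7.99 and 7.58 in the basal arrays and 9.20, 9.27, 9.83 and 10.21 after TAC (log2 difference 1.96, SE 0.33, adjusted p = 0.00086), 3.88-fold higher. Slc2a4, the insulin-regulated GLUT4, read 11.98, 12.02 and 12.01 in the basal arrays and 11.07, 10.48, 10.72 and 9.87 after TAC (-1.47, adjusted p = 0.00571), 2.77-fold lower. Neither overlapped. Likewise the muscle phosphofructokinase Pfkm (-1.24), the muscle enolase Eno3 (-0.87), the muscle glycogen phosphorylase Pygm (-1.32) and the cardiac bifunctional enzyme Pfkfb2 (-1.09) fell, while the platelet-type phosphofructokinase Pfkp (1.16) and the broadly expressed mutase Pgam1 (1.09) rose. Pgk1, Hk1 and Gbe1 rose less firmly (adjusted p up to 0.126). The creatine kinase Ckm fell from 14.03, 14.07 and 13.97 to 12.94, 12.22, 12.38 and 11.96 (-1.65, adjusted p = 0.00155). In the NAD list, 2 of 12 measured members rose and 4 fell (2 without basal array 1). Nmrk2, the nicotinamide riboside kinase of muscle, read 8.63, 8.28 and 8.15 in the basal arrays and 10.48, 11.40, 11.27 and 11.68 after TAC (log2 difference 2.85, SE 0.50, adjusted p = 0.00105), 7.23-fold higher, and Nnmt (1.38), which methylates nicotinamide, rose too. Nampt, the enzyme of the main salvage route, did not pass (-0.89, adjusted p = 0.0511). Its dimmer probe sets read -1.625 and -1.355, and Nampt passed in 6 of the alternative settings.

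**Figure D2:**
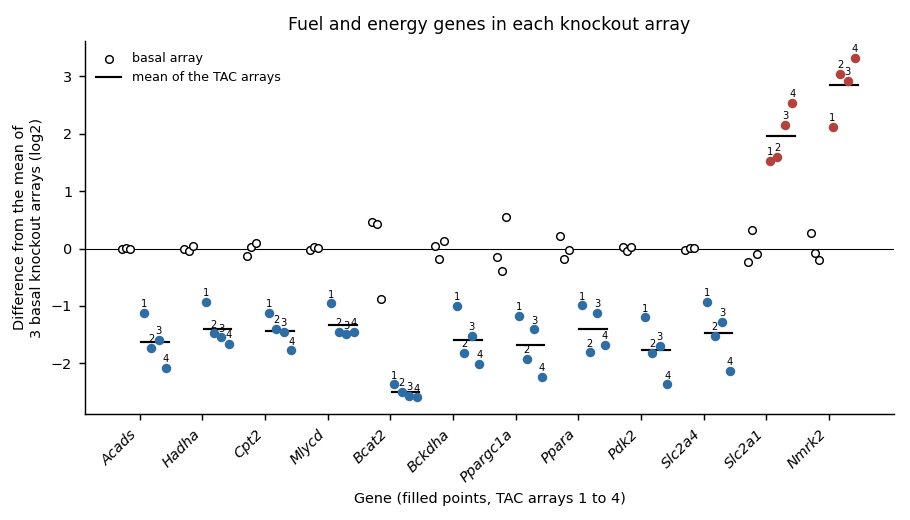
Values of 12 fuel and energy genes in each knockout array as the difference from the mean of the 3 basal knockout arrays (log2, y axis), with basal arrays as open circles, TAC arrays as filled circles numbered 1 to 4 and the TAC mean as a bar. The fatty acid and branched-chain genes lie below 0 in every TAC array, Slc2a1 and Nmrk2 lie above 0 in every TAC array, and TAC array 4 is the lowest for Acads, Cpt2, Slc2a4 and Pdk2.

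The protein-making machinery of the cytosol and that of the mitochondrion divided. Of 41 measured cytosolic ribosomal proteins, 29 rose and none fell, with a median of 0.51. Rps20 read 12.10, 12.09 and 12.07 in the basal arrays and 12.78, 13.10, 12.89 and 13.04 after TAC (log2 difference 0.87, SE 0.13, adjusted p = 0.000427) and Rps24 read 13.11, 13.13 and 13.17 in the basal arrays and 13.71, 13.81, 13.68 and 13.70 after TAC (0.59, adjusted p = 0.000427); neither overlapped. Of the other 5 probe sets of Rps24, 3 rose and a dim one fell (-0.73). Ribosomal proteins have many processed pseudogenes, whose transcripts some probe sets may also bind. Of 31 genes of ribosome biogenesis, 18 rose and 2 fell (median 0.55), among them the nucleolar proteins Npm1 (1.19), Ncl (0.82), Fbl (0.87) and Nhp2 (1.71). Nop10 (-0.37; 0.28 on a dimmer probe set, which passed as well) and, less firmly, Polr1a fell. Of 73 mitochondrial ribosomal proteins, 26 fell and 2 rose (median -0.23). Mrpl4 read 11.04, 10.94 and 10.93 in the basal arrays and 10.11, 10.00, 10.16 and 9.83 after TAC (-0.94, adjusted p = 0.00046) and Mrpl28 fell by 0.98 on the log2 scale, while Mrpl33 (0.55) and, less firmly, Mrps10 rose. The probe sets not used read -0.22 and 0.006 for Mrpl28 and -0.40 for Mrps10. Without basal array 1, 17 of the 73 fell.

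Of 31 measured aminoacyl-tRNA synthetases, which charge tRNAs, 9 rose and 6 fell, with a median of 0.03. These shares were not far from the 22.7% and 21.8% of all genes. All 6 that fell encode mitochondrial enzymes (Aars2, Cars2, Tars2, Vars2, Fars2 and Wars2, the last 2 less firmly, from -1.12 for Cars2 to -0.39 for Tars2). A dimmer probe set of Fars2 rose (0.78), against -0.66 for the one used. The 9 that rose were 7 genes of cytosolic enzymes, led by Hars, and, less firmly, the mitochondrial Rars2 and Ears2 (adjusted p up to 0.126). Without single arrays 4 to 9 rose, 4 of them without basal array 2, basal array 3 or TAC array 4. Hars, the histidyl enzyme, read 8.46, 8.04 and 7.95 in the basal arrays and 9.24, 9.66, 9.64 and 10.51 after TAC (1.61, adjusted p = 0.00162). Of 58 translation factors and their regulators, 21 rose and 5 fell (median 0.22). Eif4ebp2, a repressor of cap-dependent translation, read 8.79, 8.78 and 8.92 in the basal arrays and 7.09, 6.99, 6.88 and 6.56 after TAC (log2 difference -1.95, SE 0.16, adjusted p = 5.47e-05), 3.86-fold lower with the TAC arrays within 0.53 of each other. Its other 3 probe sets were dimmer and read -0.97, which passed, -0.05 and 0.11. Its relative Eif4ebp1 read 10.40, 10.25 and 10.38 in the basal arrays and 11.01, 11.23, 11.25 and 11.55 after TAC and rose (0.92, adjusted p = 0.00274). The muscle elongation factor Eef1a2 (-0.61) fell.

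Protein quality control changed by branch. Of 37 measured proteasome subunits, 18 rose and none fell (median 0.34); Psma5, of the core particle, read 10.16, 10.18 and 10.04 in the basal arrays and 11.14, 11.30, 11.27 and 11.50 after TAC (log2 difference 1.18, SE 0.12, adjusted p = 8.65e-05). Of 34 chaperones controlled by heat shock factor and their partners, 4 rose and 8 fell (median -0.09), and the share that fell was close to that of all genes (21.8%). Fkbp4, a partner of Hsp90, read 11.51, 11.49 and 11.64 in the basal arrays and 10.24, 9.60, 9.57 and 9.26 after TAC (-1.88, adjusted p = 0.000559), and Hsph1, an exchange factor of Hsp70, read 11.00, 10.27 and 11.29 in the basal arrays and 9.29, 9.02, 9.20 and 8.89 after TAC (-1.75, adjusted p = 0.000676). Cdc37 (-0.70), Hspa4l (-1.07), Bag6 (-0.71) and Ahsa1 (-0.65) fell too, while Hspa13 (1.08) and the chaperonin subunits Cct8 (1.18) and, less firmly, Cct2 (adjusted p = 0.0577 without basal array 2) rose. The inducible Hsp70 genes did not pass and split the basal arrays: Hspa1a read 10.27, 6.48 and 10.72 in the basal arrays and 7.73, 6.82, 6.87 and 6.69 after TAC (adjusted p = 0.0852) and Dnajb1, its J-protein, 11.03, 9.51 and 10.91 in the basal arrays and 9.20, 9.38, 9.47 and 9.96 after TAC (adjusted p = 0.0694). Basal arrays 1 and 3 were high in both, and basal array 2 read like the TAC arrays. The part of that spread in the other chaperones was not tested.

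Among 13 genes of the small heat shock protein and Bag3 machinery, in which Hsp22 itself acts, 4 rose and 2 fell. Cryab, the alphaB-crystallin, read 13.78, 13.75 and 13.89 in the basal arrays and 13.98, 14.28, 14.28 and 14.44 after TAC (0.44, adjusted p = 0.00914), and Hspb7 rose by 0.41 (adjusted p = 0.0163, and 0.0771 without basal array 1). The client Flnc and Synpo2 (0.69), a Bag3 partner, were the other risers. The probe sets not used read -0.06 and 0.001 for Hspb7 and -0.68 and 0.63 for Synpo2. With the mean of probe sets neither Hspb7 nor Synpo2 passed (adjusted p = 0.431 and 0.355 in limma). The autophagy receptor Sqstm1 read 12.33, 12.45 and 12.40 in the basal arrays and 11.84, 12, 11.85 and 11.89 after TAC (-0.50, adjusted p = 0.00148) and the ubiquitin ligase Stub1 (-0.27) fell, the latter less firmly (adjusted p = 0.0569 without basal array 3). Bag3 (-0.30, adjusted p = 0.121) and Hspb1 (0.19, adjusted p = 0.383) did not pass. Of 21 autophagy genes, 6 fell and 3 rose, shares not far from those of all genes. Those that fell included Tfeb (-0.72), Atg9a (-0.92) and, less firmly, the kinases Ulk1 and Pink1 (adjusted p up to 0.08). Becn1 (0.34; its other probe sets read -0.16 and 0.19), Atg3 and Gabarapl2 rose less firmly. Without basal array 1, 4 fell and none rose, and under quantile normalization none rose. Of 21 lysosomal genes, 8 rose, led by Lamp2 (0.95), and 1 fell. Of 33 genes of the unfolded protein response, 8 rose (5 without basal array 2), close to the share of all genes, and 5 fell (3 without basal array 3): the disulfide isomerases P4hb (0.97) and Pdia5 (1.15) and Derl1 (1.01) rose, and Herpud1 (-1.07) and the sensor Ern1 (-0.50) fell, with, less firmly, the stress factors Ddit3 and Atf4 (adjusted p up to 0.0694). The ER stress element (CCAAT, 9 bases of any kind and CCACG, on either strand) was found before the start of 9 of the 29 listed genes with a promoter (31.0%), against 0.142% of the tested genes, in 1 of 7 risers and 1 of 5 fallers among them. Of 25 antioxidant genes 7 rose (4 without basal array 1) and 7 fell (5 without basal array 2). Hmox1, the inducible haem oxygenase, read 6.98, 6.87 and 7.59 in the basal arrays and 10.09, 8.94, 9.69 and 10.17 after TAC (2.58, adjusted p = 0.00629), while Sod1 (-0.83) and the mitochondrial Txn2 (-0.83) and Prdx3 (-0.68) fell; a dim probe set of Sod1 rose (0.56).

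Matrix genes rose. Of 27 measured collagen genes, 14 rose and 3 fell, with a median of 0.52, and of 22 matricellular genes, 13 rose and 3 fell, with a median of 1.22. Col8a1, a short-chain collagen of vessels, read 8.24, 8.61 and 8.43 in the basal arrays and 10.66, 12.04, 11.69 and 11.79 after TAC (log2 difference 3.12, SE 0.38, adjusted p = 0.000183), 8.68-fold higher. Col1a1, the main fibrillar collagen chain, read 10.04, 10.24 and 9.74 in the basal arrays and 12.12, 12.43, 12.30 and 11.88 after TAC (2.18, adjusted p = 0.00262), Col3a1 rose by 1.83 and Col5a2 by 2.74. None overlapped. The 3 that fell, Col9a1 (-0.51) and, less firmly, Col7a1 and Col9a3, are not among the main collagens of the ventricle. Postn, periostin, read 10.38, 10.51 and 9.96 in the basal arrays and 12.72, 13.48, 13.19 and 13.06 after TAC (2.83, adjusted p = 0.000117), and Thbs4, a thrombospondin of strained tissue, read 7.79, 8.42 and 8.13 in the basal arrays and 9.93, 10.11, 10.51 and 10.55 after TAC (2.16, adjusted p = 5.47e-05). Fn1 (2.64), Cilp (2.82), Ccn2 (1.57) and Ccn5 (1.53) rose. Tnxb went against its relative Tnc, at 9.81, 9.83 and 9.68 in the basal arrays and 7.85, 6.86, 7.28 and 6.92 after TAC (-2.55, adjusted p = 0.000866), and Vtn (-1.04) and, less firmly, Smoc1 (adjusted p up to 0.154) fell as well.

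Enzymes that shape the matrix followed in part. Of 19 collagen-modifying genes, 9 rose and 1 fell. Lox, the crosslinking lysyl oxidase, read 7.52, 7.50 and 6.78 in the basal arrays and 10.58, 11.28, 11.46 and 11.76 after TAC (log2 difference 4.00, SE 0.56, adjusted p = 0.000354), 16-fold higher; Loxl3 (1.96) rose and Plod1 (-0.60) fell. Without basal array 1 or 3, 5 of the 19 rose. Of 28 metalloproteinase genes and their inhibitors, 9 rose, 2 fell and 17 did not pass, with a median of 0.005. Timp1 read 7.25, 7.61 and 7.15 in the basal arrays and 11.26, 11.45, 11.95 and 12.02 after TAC (4.33, adjusted p = 0.000115) and Mmp14, a membrane-bound protease, 7.42, 7.58 and 7.58 in the basal arrays and 9.16, 9.62, 9.24 and 9.57 after TAC (1.87); Adam12 (3.27) and Mmp3 (2.37) rose too. Elastic fibre genes were mixed, 8 higher and 3 lower of 15: Ltbp2 (2.97) and Mfap5 (1.88) rose, while Fbln1 (-1.97) and Ltbp4 (-1.64), which holds latent TGF-beta in elastic fibres, fell. Among 20 proteoglycans and related genes, 9 rose, including Aspn (2.19), Vcan (2.01) and Sdc4 (2.28), and 6 fell, including Mdk (-0.65) and Gpc1 (-0.76). In the TGF-beta, activin and BMP list, 10 of 26 rose and, less firmly, the signal carrier Smad3 (-0.53), the receptor Acvr2a (-0.52, its other probe set -0.01) and the ligand Bmp7 (-0.23) fell, none of them without basal array 3. Tgfb2 read 6.99, 6.90 and 6.85 in the basal arrays and 8.58, 8.92, 9.19 and 9.57 after TAC (2.15, adjusted p = 0.000468), both receptors Tgfbr1 (1.13) and Tgfbr2 (0.84) rose, and Tgfb1 did not pass (adjusted p = 0.99). The other probe set of Tgfbr2 read -0.04. Of the 6 secreted Wnt antagonists measured, Frzb (1.44), Sfrp1 (1.58) and Sfrp2 (1.52) rose and Sfrp5 (-0.68) and, less firmly, Sfrp4 fell.

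**Figure D3:**
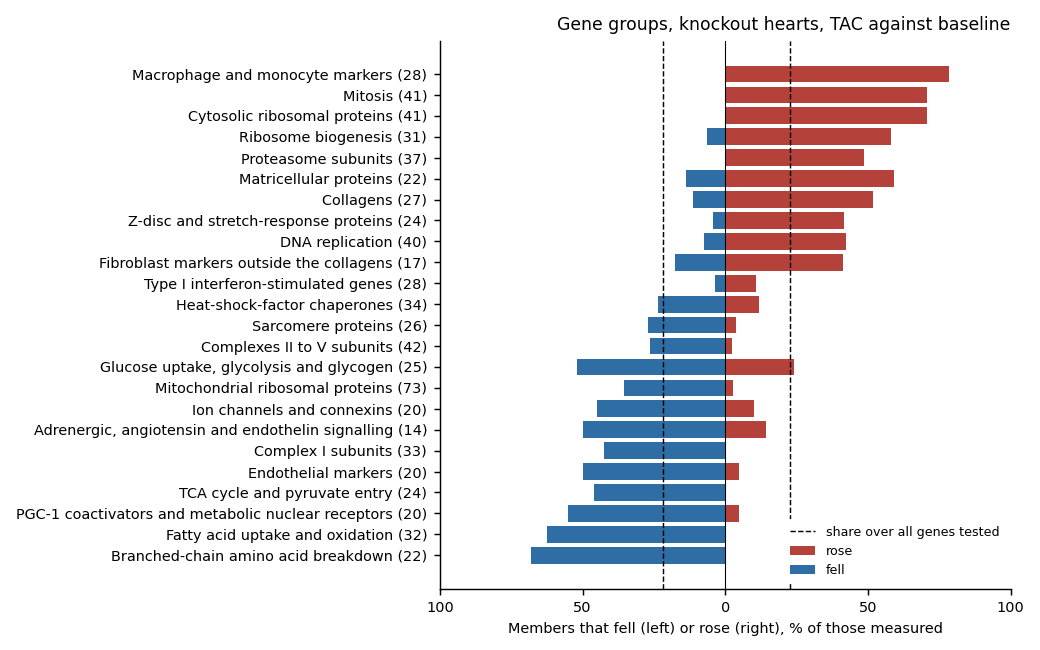
Share of the measured members (x axis, percent) that rose (right) or fell (left) between basal and TAC knockout hearts, for 24 gene groups, with the numbers of members measured beside the names. Dashed lines mark the share over all genes tested, 22.7% higher and 21.8% lower. Macrophage markers, mitosis and cytosolic ribosomal proteins reach furthest right, and branched-chain and fatty acid genes furthest left.

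Cell division genes rose from near the floor of the array. Of 41 measured mitosis genes, 29 rose and none fell, with a median of 1.63. Mki67, the Ki-67 antigen of cycling cells, read 6.20, 5.89 and 5.92 in the basal arrays and 8.50, 9.33, 9.20 and 9.40 after TAC (log2 difference 3.10, SE 0.60, adjusted p = 0.00171), 8.60-fold higher. Top2a, the topoisomerase that untangles sister chromatids, read 5.42, 4.50 and 5.60 in the basal arrays and 8.04, 8.72, 8.45 and 8.59 after TAC (3.28), at least 9.69-fold higher. Ccnb2, a mitotic cyclin, read 5.35, 4.54 and 5.19 in the basal arrays and 7.60, 8.11, 8.33 and 8.17 after TAC (3.03, adjusted p = 0.00107), and Cdk1, the mitotic kinase, read 5.43, 5.41 and 5.72 in the basal arrays and 7.97, 8.33, 8.41 and 8.44 after TAC (2.77, adjusted p = 0.0041). In all 4 every TAC array stood above every basal array, and the basal arrays lay near the table median or under it. The mean over the 41 genes was 5.64 to 5.73 in the basal knockout arrays and 6.97, 7.37, 7.40 and 7.47 after TAC, and in the wild-type TAC arrays it ran from 5.79 to 8.27. DNA replication genes rose less uniformly, 17 higher and 3 lower of 40 (median 0.68), with Rrm2 (3.03), Uhrf1 (2.39) and Mcm5 (1.75) among the risers and Pola2, Gins3 and, less firmly, Pold1 lower. The cell cycle inhibitor Cdkn1a, p21, read 10.78, 10.76 and 10.91 in the basal arrays and 9.68, 9.34, 9.71 and 10.19 after TAC (-1.09, adjusted p = 0.00157), and Cdkn1c (-1.19) fell as well, while Cdkn1b rose by 0.67. Which cells divided was not measured.

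Promoters of mitosis genes commonly hold a cell cycle homology region near the start, with the letters TTTGAA, and CCAAT boxes, and since these genes rose together the 120 bases before the start of 3 of them are shown from RefSeq (GRCm38.p6, each on the minus strand and printed in the direction of the gene), with TTTGAA and CCAAT on either strand in capitals. Ccnb2 lies at chr9:70421555-70421674, Cdk1 at chr10:69352913-69353032 and Top2a at chr11:99024190-99024309.
Ccnb2: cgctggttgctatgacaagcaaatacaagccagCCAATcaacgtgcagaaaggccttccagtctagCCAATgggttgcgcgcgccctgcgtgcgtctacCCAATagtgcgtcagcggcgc
Cdk1: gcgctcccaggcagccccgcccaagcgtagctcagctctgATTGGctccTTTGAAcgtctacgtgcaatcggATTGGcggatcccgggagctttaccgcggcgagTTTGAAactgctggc
Top2a: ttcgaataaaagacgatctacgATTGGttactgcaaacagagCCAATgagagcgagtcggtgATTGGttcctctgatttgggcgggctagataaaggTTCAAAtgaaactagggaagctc

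These stretches hold several CCAAT boxes in Ccnb2 and Top2a and a pair of each motif in Cdk1. Of the 41 mitosis genes, 33 had a promoter in the table. In the 250 bases before the start, searched on both strands, TTTGAA was found in 12 of the 33 (36.4%), against 12.7% of the tested genes with a promoter and 16.0% of all promoter windows. CCAAT was found in 26 of the 33 (78.8%), against 39.9% of the tested genes and 33.8% of all windows. The motifs can share at most 1 base. Of the 33 genes, 24 rose. Of the 12 with TTTGAA, 11 rose and 1 (Ncapd2, 0.43) did not pass, and of the 26 with CCAAT, 17 rose. A match says that the letters are there, not that a factor binds. The E2F site, searched as TTTCCCGC and as TTTGGCGC, was found in 2 and in 3 of the 32 DNA replication genes with a promoter (6.2% and 9.4%, against 1.88% and 0.903% of the tested genes). None of the 15 risers among them held TTTCCCGC, whose carriers were Gins3, which fell, and Mcm7, which did not pass. The 3 with TTTGGCGC, Mcm5, Mcm6 and Pola1, rose.

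Macrophage markers rose. Of 28 measured markers, 22 rose and none fell, with a median of 1.37. Cd68, a lysosomal glycoprotein of macrophages, read 7.47, 7.44 and 7.42 in the basal arrays and 9.61, 9.41, 10.04 and 9.58 after TAC (log2 difference 2.22, SE 0.35, adjusted p = 0.000653), 4.65-fold higher. Lgals3, galectin-3, read 7.50, 7.26 and 6.95 in the basal arrays and 9.73, 10.21, 10.35 and 10.11 after TAC (2.86, adjusted p = 0.000465), and Mrc1, the mannose receptor of resident macrophages, read 9.04, 9.16 and 8.59 in the basal arrays and 10.37, 10.34, 10.43 and 10.46 after TAC (1.47, adjusted p = 0.000896). No arrays overlapped in these 3. Chil3, a product of newly recruited and alternatively activated macrophages, read 3.99, 4.20 and 4.42 in the basal arrays and 7.88, 6.87, 8.42 and 9.55 after TAC (3.98), and Arg1 4.27, 4.29 and 4.96 in the basal arrays and 8.24, 5.39, 7.98 and 9.36 after TAC (3.24, adjusted p = 0.0201), with TAC array 2 lowest of its group in both. Arg1 was less firm (adjusted p up to 0.0606 without basal array 1, basal array 2 or TAC array 4). The probe sets of Ccr2, the receptor of recruited monocytes, disagreed: the brightest, which stands for the gene here, did not pass, at 8.07, 8.15 and 8.16 in the basal arrays and 8.10, 8.0, 7.99 and 7.58 after TAC (adjusted p = 0.295), while its other 3 differed by 3.38, 3.08 and 1.27 and passed over all probe sets (adjusted p = 0.00173, 0.00279 and 0.0219). Neither Csf1r (0.56, adjusted p = 0.166) nor Adgre1 (1.12, adjusted p = 0.0538) passed. The mean of the 28 markers was 7.63 to 7.76 in the basal knockout arrays and 9.15 to 9.34 after TAC.

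Chemokine, complement and cytokine genes rose in part. Of 34 chemokines and receptors, 10 rose and 2 fell: the monocyte attractants Ccl12 (6.40, 5.87 and 6.19 in the basal arrays and 8.62, 8.41, 8.59 and 8.92 after TAC; log2 difference 2.48) and Ccl8 (1.84) rose, as did Ccl6 (1.42) and the receptors Ccr1 (2.75) and Cxcr6. Ccl2, Ccl7, Ccl9, Cx3cr1 and Cxcr3 rose less firmly (adjusted p up to 0.0944). The share of the 34 that rose was not far from the 22.7% of all genes, and the median was 0.18. Without basal array 1 or 2, 6 of the 34 rose. Cxcl14 and, less firmly, Ccl28 fell. Of 13 complement genes, 5 rose (3 without basal array 3), led by Masp1 (6.35, 6.89 and 6.62 in the basal arrays and 8.81, 9.71, 9.25 and 9.54 after TAC; log2 difference 2.71) and C3ar1 (2.85), with the 3 C1q chains. Masp1 had 4 probe sets, and those not used read from 0.035 to 0.64. Of 6 neutrophil markers measured, S100a8 (1.88), S100a9 (1.96) and Il1r2 rose, and of 5 lymphocyte markers, all dim, none passed. In the list of gp130 cytokines and Stat3 targets, 11 of 25 rose and 2 fell. Lcn2, lipocalin 2, read 5.85, 6.83 and 5.65 in the basal arrays and 10.43, 9.71, 10.28 and 10.17 after TAC (log2 difference 4.04, SE 0.33, adjusted p = 5.47e-05), Osmr, the oncostatin M receptor, read 8.13, 8.04 and 7.96 in the basal arrays and 9.67, 9.96, 10.05 and 10.59 after TAC (2.02) and Il6 rose by 2.57 from a level under the table median. Stat3 itself rose from 11.13, 11.13 and 11.07 to 11.45, 11.50, 11.51 and 11.77 (0.45, adjusted p = 0.0134), and its feedback inhibitor Socs3 did not pass (0.35, adjusted p = 0.549). The dimmer probe sets of Socs3 read 1.265 and 1.356, and in a fit of the knockout arrays only Socs3 passed (adjusted p = 0.0317 in limma). Stat3 had 4 probe sets, and those not used read from -0.263 to 0.355. With the mean of probe sets Stat3 did not pass (adjusted p = 0.391 in limma). Cebpb, a factor of the acute phase, fell (-0.87).

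Markers of the other cell types gave a mixed picture. Endothelial markers fell, 10 of 20 against 1 riser, with a median of -0.47: Tie1, an endothelial receptor, read 8.77, 8.99 and 9.04 in the basal arrays and 7.48, 7.41, 7.48 and 7.29 after TAC (log2 difference -1.52, SE 0.15, adjusted p = 7.41e-05), Aqp1 (-1.76), Eng (-0.75) and Robo4 (-0.79) fell, Sox17 rose (1.09; without probe sets that can bind other transcripts it read -0.55 and did not pass), and Pecam1 (-0.30, adjusted p = 0.051) and Cdh5 (-0.26, adjusted p = 0.08) did not pass. The dimmer probe set of Cdh5 read -1.20, and Pecam1 passed in 6 and Cdh5 in 3 of the alternative settings. Nos3, the endothelial nitric oxide synthase, read 9.13, 8.99 and 9.13 in the basal arrays and 8.61, 8.42, 8.37 and 8.52 after TAC (-0.60, adjusted p = 0.00176). Klf2, which flow induces in endothelium, read 10.74, 10.38 and 10.69 in the basal arrays and 9.14, 9.18, 8.94 and 8.74 after TAC (-1.60, adjusted p = 0.000111). Of 17 fibroblast markers outside the collagens, 7 rose, including Pdgfra (0.69) and Vim (1.10), and 3 fell: Scara5 (adjusted p = 0.0506 without basal array 2; 9.59, 9.67 and 9.08 in the basal arrays and 8.46, 6.98, 7.71 and 6.36 after TAC; log2 difference -2.07), Clec3b (-1.18) and, less firmly, Pi16 (adjusted p = 0.0723 without basal array 2). Of 16 smooth muscle and pericyte markers, 4 rose, among them Pdgfrb (1.23), and 4 fell, among them Smtn (-1.27). Of 8 epicardial markers, 4 rose (2 without basal array 1), with Aldh1a2, the retinoic acid enzyme, at 6.96, 6.22 and 7.09 in the basal arrays and 8.87, 9.75, 9.84 and 10.00 after TAC (2.86, adjusted p = 0.00126), and Wt1, which defines the epicardium, dim and not passed (-0.14, adjusted p = 0.427).

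Atrial markers varied widely within each group. Sln, sarcolipin, read 10.44, 7.13 and 12.60 in the basal arrays and 9.0, 4.37, 6.89 and 8.72 after TAC (adjusted p = 0.133) and Myl7, the atrial light chain, 11.91, 9.11 and 13.56 in the basal arrays and 10.81, 5.21, 9.05 and 11.50 after TAC (adjusted p = 0.256). Basal array 3 was highest and basal array 2 lowest of the basal arrays in both, and TAC array 2 was the lowest of all. Of 12 atrial markers, 4 fell and none rose: Stard10 (-2.17), Kcnj3, Mybphl and Dbh. The mean of the 12 ran from 8.45 to 10.54 in the basal and from 7.57 to 8.92 in the TAC arrays. The part of atrial RNA in the values of Nppa, Kcnj3, Stard10 and Mybphl was not tested.

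Signalling genes of vessels and the early response changed one by one. Hif1a, the hypoxia factor, read 9.58, 9.71 and 9.57 in the basal arrays and 11.10, 11.21, 11.15 and 11.44 after TAC (log2 difference 1.60, SE 0.22, adjusted p = 0.000318), its prolyl hydroxylase Egln1 fell (-1.19), and of 20 angiogenic and hypoxia genes 4 rose and 6 fell. Vegfb, a growth factor of cardiac vessels, read 11.48, 11.38 and 11.48 in the basal arrays and 10.24, 9.70, 10.03 and 9.58 after TAC (-1.56, adjusted p = 0.000606), Igf1 (1.35) and Vegfc (1.02) rose, and Vegfa did not pass (-0.50, adjusted p = 0.106). The dimmer probe set of Vegfa read -1.26, and Vegfa passed in 3 of the alternative settings. In the nitric oxide and cyclic GMP list 7 of 17 rose and 2 fell; Ddah1, which clears an inhibitor of nitric oxide synthesis, rose (1.53), as did the caveolin of muscle, Cav3 (1.32), and the kinase Prkg1 (0.68). Of 24 immediate early genes 2 rose, Ier3 (2.13) and, less firmly, Egr2, and 4 fell: Klf2 and, less firmly, Jun (-1.20), Klf4 and Nr4a2 (adjusted p up to 0.126). Of 18 clock genes 3 rose, Per3 (1.56) and, less firmly, Nr1d2 and Bhlhe40, and 3 fell, Arntl (-0.68) and, less firmly, Nfil3 and Rora (adjusted p up to 0.143). The time of day of sampling was not stated.

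**Figure D4:**
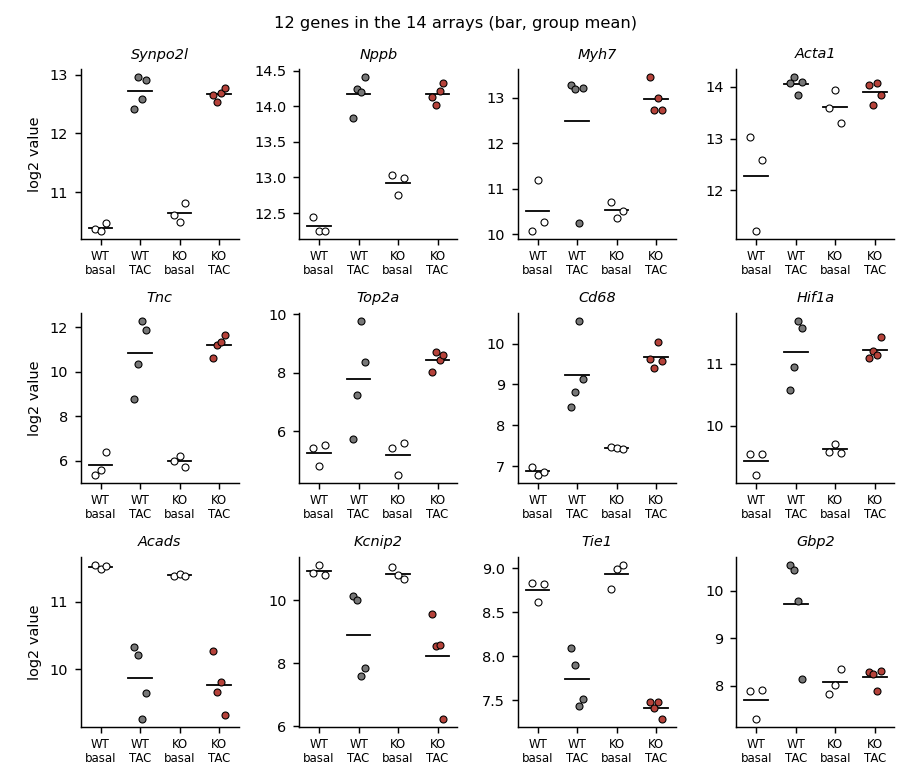
Log2 values of 12 genes in each of the 14 arrays, by group (basal and TAC, wild type and knockout), 1 point per array and a bar at the group mean. Synpo2l, Tnc, Top2a, Cd68 and Hif1a are higher and Acads, Kcnip2 and Tie1 lower in every TAC knockout array than in any basal knockout array, Gbp2 is higher after TAC in the wild type and overlaps in the knockout, and for Acta1 the basal knockout arrays already lie above the basal wild-type arrays.

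Whether the knockout responded differently from the wild type was asked by the difference of the TAC effects, knockout minus wild type, which compares each genotype with its own basal arrays. No gene passed in limma (0%). At an unadjusted p under 0.05, 952 genes did (7.77%), 367 with the knockout effect above the wild-type effect (2.99%) and 585 below it (4.77%). The smallest adjusted p was 0.464, shared by several genes. With array weights estimated by limma 166 genes passed, without wild-type TAC array 4 there were 8, and without wild-type TAC array 1 there was 1. Nlk, a kinase related to the MAP kinases, had the smallest p: it read 8.76, 8.53 and 8.74 in basal knockout and 8.71, 8.57, 8.65 and 8.70 in TAC knockout arrays, against 8.29, 7.89 and 7.99 in basal and 8.72, 8.96, 9.13 and 8.96 in TAC wild-type arrays (difference -0.91, SE 0.17, unadjusted p = 0.000125). The 2 dimmer probe sets of Nlk differed by -0.21 and 0.65 between basal and TAC knockout arrays, the second of which passed. Fbln5, an elastic fibre protein, rose in the knockout (0.50) and read -0.29 in the wild-type comparison (difference 0.79, unadjusted p = 0.000592). Hspa4l, an Hsp70 relative, fell in the knockout with -0.24 in the wild type (difference -0.83, unadjusted p = 0.000937). The others of the 15 with the smallest p were Mtx3, Tmem37, Dmxl1, Tm2d1, Akap4, Rnd2, Zbtb43, Trim65, Ormdl1, Prrx1, St13 and Klhl20, and none of these 15 is a member of the contractile or fuel lists. A dim probe set of Prrx1 rose between basal and TAC knockout arrays (1.25), against -0.15 for the one used. The differences from the wild type below are given as values that did not pass.

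Interferon-inducible genes rose in wild-type hearts, while few passed in knockout hearts, and no gene passed for the difference itself (0% of all genes). In the knockout, 3 of 28 measured type I interferon-stimulated genes rose and 1 fell (median 0.09), while in the wild type 18 rose and 1 fell (median 0.86), and 12 had an unadjusted p under 0.05 for the difference (median -0.67; over all genes -0.03). Of 14 genes induced by interferon gamma, none rose and Irf1 fell in the knockout (median -0.12), and 8 rose in the wild type (median 1.43; from 5 without basal array 1 to 12 without TAC array 4); 11 of the 14 had an unadjusted p under 0.05 for the difference (median -1.58). Gbp2, a guanylate-binding protein that guards against microbes, read 7.82, 8.02 and 8.36 in the basal arrays and 8.29, 8.24, 7.88 and 8.30 after TAC in the knockout, and 7.89, 7.30 and 7.90 in the basal and 10.54, 10.43, 9.79 and 8.13 in the TAC wild-type arrays (difference -1.92, SE 0.61, unadjusted p = 0.00782, adjusted p = 0.499). Wild-type TAC array 4 lay near the basal ones and the other 3 well above them. Over the 14 genes the mean was 7.36 to 7.46 in basal and 9.19, 9.52, 8.86 and 7.24 in TAC wild-type arrays, and 8.26, 7.49 and 7.74 in basal and 7.41 to 7.95 in TAC knockout arrays. Basal knockout array 1 was thus the highest of the 7 knockout arrays. Over the 28 type I genes the mean was 7.48, 7.33 and 7.53 in basal and 7.61, 7.76, 7.54 and 7.37 in TAC knockout arrays, so that TAC arrays 1 and 2 lay above all basal ones, array 3 barely did and array 4 did not. In the wild type it was 7.16 to 7.39 in basal and 8.15, 8.34, 8.53 and 7.31 in TAC arrays. Antigen presentation genes of class I went the same way, with all 11 measured differences below 0 and 6 at an unadjusted p under 0.05 (from 2 without basal wild-type array 2, basal knockout array 1, wild-type TAC array 1 or 2 or knockout TAC array 3 to 8 without wild-type TAC array 4), among them the immunoproteasome subunits Psmb9 (-1.42) and Psmb10 (-0.79). When each of the 14 arrays was left out in turn, the median difference ran from -0.93 to -0.55 in the type I list and from -2.13 to -1.23 in the interferon gamma list. The counts at an unadjusted p under 0.05 ran from 4 to 21 and from 3 to 12, lowest without basal knockout array 1 (in the type I list also without basal wild-type array 2) and highest without wild-type TAC array 4. The count of type I genes that rose in the wild type ran from 10 without basal array 2 to 22.

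The promoter of Ifit1, one of the type I genes that did not pass in the knockout (7.03, 6.28 and 6.35 in the basal arrays and 6.65, 6.98, 6.52 and 6.41 after TAC; wild-type difference 1.42), is shown because it holds interferon-stimulated response elements, GAAA and 2 bases of any kind and GAAA again, on either strand, here in capitals. These are the 120 bases before its start (chr19:34640769-34640888, plus strand, RefSeq, GRCm38.p6).
Ifit1: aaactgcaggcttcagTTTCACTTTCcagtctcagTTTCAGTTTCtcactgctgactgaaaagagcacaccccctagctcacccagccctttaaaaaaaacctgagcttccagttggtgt

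Of the 28 type I genes, 20 had a promoter in the table, and 8 of these (40%) held the element in the 250 bases before the start, against 2.97% of the tested genes and 2.98% of all windows. Of those 8, Trim30a rose in the knockout (1.28) and the other 7, including Rsad2 (-0.34) and Ifit3 (0.35), did not pass.

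**Figure D5:**
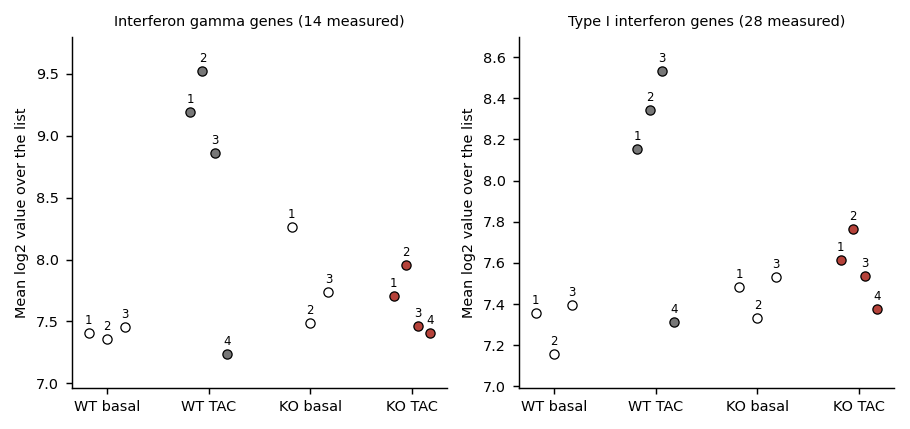
Mean log2 value over the 14 interferon gamma genes and over the 28 type I interferon genes in each of the 14 arrays, by group, with arrays numbered. In wild-type hearts 3 of the 4 TAC arrays lie above all basal arrays in both lists and TAC array 4 does not, and in knockout hearts 3 of the 4 TAC arrays of the type I list lie above all basal arrays by a smaller step, while those of the interferon gamma list lie within the range of the basal arrays or just below it.

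Among the load and matrix genes, several read differently without passing. Nppb rose by 1.25 in the knockout and by 1.85 in the wild type (difference -0.61, unadjusted p = 0.00669). Acta1 read 13.03, 11.22 and 12.58 in basal and 14.07, 14.19, 13.85 and 14.09 in TAC wild-type arrays, a rise of 1.77 (adjusted p = 0.000806), while the basal knockout arrays, at 13.59, 13.93 and 13.30, already lay above all basal wild-type arrays and the TAC knockout arrays, at 14.03, 13.65, 14.08 and 13.84, lay near those of the wild type (difference -1.48, unadjusted p = 0.00517). Rcan1, an inhibitor of calcineurin that calcineurin itself induces, did not pass in the knockout (0.55, adjusted p = 0.117) and rose in the wild type (1.21, adjusted p = 0.00339; difference -0.66, unadjusted p = 0.114), and the inducible nitric oxide synthase Nos2 was too dim to be tested. Ptn, pleiotrophin, a heparin-binding growth factor, read 4.66, 5.31 and 4.59 in the basal arrays and 7.61, 9.14, 7.56 and 7.50 after TAC in the knockout and 5.16, 4.97 and 4.71 in basal and 5.36, 5.86, 6.78 and 5.95 in TAC wild-type arrays (difference 2.06, unadjusted p = 0.00228). In Ptn every TAC knockout array lay above every TAC wild-type array. The differences of Masp1 (1.64, unadjusted p = 0.00272 in limma) and Ccn5 (0.94, unadjusted p = 0.00943 in limma) also lay above 0. The probe sets of Masp1 that were not used read from 0.035 to 0.64 between basal and TAC knockout arrays. In the chaperone list, 10 genes rose and 3 fell in the wild type against 4 and 8 in the knockout, 31 of 34 differences lay below 0 (54.5% of all genes did) and 7 had an unadjusted p under 0.05 (11 without basal knockout array 2 or wild-type TAC array 1), with Hsph1 at -1.63 (unadjusted p = 0.00116), beside the high basal knockout values of Hspa1a and Dnajb1 already given. Of 73 mitochondrial ribosomal proteins, 11 fell in the wild type against 26 in the knockout, but the wild-type count ran from 5 without basal array 1 to 23 without TAC array 1, and 6 had an unadjusted p under 0.05 for the difference, close to the 7.77% of all genes. Of the 6 neutrophil markers, none rose in the wild type and all 6 differences lay above 0, 1 of them at an unadjusted p under 0.05. Without wild-type TAC array 1, 1 of the 6 rose there and 1 difference lay below 0. In the fatty acid, complex II to V and glucose lists no member had an unadjusted p under 0.05 for the difference. One wild-type TAC array, the third, stood apart, correlating with others of its group at r down to 0.918, and without it again no gene passed for the difference.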

How the data were processed

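RNA of left ventricle was measured on Affymetrix Mouse430_2 arrays, 1 per sample, in 14 samples. Per probe set, the deposited table gives log2 expression, which the authors made with RMA, per the submitters' processing notes; RMA corrects background, equalises the distributions of the arrays and summarises the probes of each set. Its version, and if the 14 arrays went through it as 1 batch, was not stated. As an array series it has no read depth, and the number of arrays limits the precision.

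Of the 45101 probe sets, 64 were controls, 34958 carried 1 gene symbol in the platform annotation, 932 several and 9211 none; 34741 of the 34958 were matched to RefSeq by gene number and 1 by accession. Probe sets with 1 symbol were kept if 3 or more arrays exceeded 5.75, the table's median (21216 remained), and the brightest kept probe set stood for each of 12260 genes. The values were fitted in R 4.3.3 with limma 3.58.1, in a model of the 4 groups over all 14 arrays, with contrasts for TAC against basal in each genotype and for their difference, and Benjamini-Hochberg adjustment over the 12260 genes; the test was run on simulated data first. Samples were grouped by their titles.

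The members and the 62 gene lists, which name 1533 genes of which 1323 were measured, were chosen with earlier results of these data known. Genes were named by a rule: Hspb8, 25 markers of cardiac stress, the 25 largest rises and 25 largest falls without overlap, in each list up to 8 members with the smallest p and those against the trend of their list, the 15 genes and up to 6 members of each list with the smallest p for the difference, and probe sets that disagree. Adgre1, Ccl2, Ccl7, Cd36, Cdh5, Cdk1, Col1a1, Csf1r, Cx3cr1, Ears2, Hcn2, Hspa1a, Ifit3, Kcnd2, Lpl, Mcm5, Pecam1, Pfkm, Rars2, Scn4b and Tgfb1 were named outside it, after their values were seen. Alternatives were another filter, the mean of probe sets, no probe sets of the classes x_at and s_at, quantile normalization, median centring, the knockout arrays only, a trended robust prior, weighting the arrays, blocking on the replicate number, a fold of 1.5 and leaving out each array. Promoters were taken from RefSeq's GRCm38.p6 table for 9861 of the tested genes. A sequence or coordinate of a probe was not used here.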

Additional observations from a re-analysis of the deposited data

Results flagged for a closer look

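In 17 of 340 named genes, 1 of the 4 TAC knockout arrays lay apart from the other 3 by more than Dixon's limit for 4 samples, a share of the group's range; chance alone gives about 5% of groups. TAC array 1 was the one apart in 9 of them. Adra1b read 6.13 there against 6.31 to 6.32 in the other 3, Arntl 7.76 against 7.94 to 7.95, Cebpb 10.01 against 9.53 to 9.57, Ces1d 8.68 against 6.81 to 6.93 and Mfap5 11.40 against 11.94 to 12.04. Mlycd read 8.69 against 8.15 to 8.19, Pgk1 12.63 against 12.92 to 12.94, Pink1 11.29 against 10.66 to 10.68 and Tars2 8.70 against 8.76 to 8.77. TAC array 4 was apart in 6: Cars2 read 7.31 against 7.94 to 8.01, Ccl2 9.78 against 8.11 to 8.26, Cdc37 10.75 against 10.96 to 10.99, Derl1 10.60 against 10.14 to 10.20, Jph2 11.36 against 10.88 to 10.93 and Ncl 12.12 against 11.50 to 11.54. Gbp2 read 7.88 in TAC array 3 against 8.24 to 8.30, and Ptn read 9.14 in TAC array 2 against 7.50 to 7.61.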

How the results depend on the processing

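The count of 5451 genes that passed between basal and TAC knockout hearts lay between 3983 with a stricter filter (above 7.70, which tested 7653 genes) and 7075 with array weights when 1 choice at a time was changed, apart from the demand for a fold of 1.5, which left 3090. The lower genes alone moved from 2670 to 1764 with the stricter filter and to 1210 with the fold of 1.5. Without 1 knockout array the count ran from 4091 to 5306. Of the genes called, 4779 were shared with the mean of probe sets, where 11 of them had the other sign, and 5056 with quantile normalization, under which 43.3% of the calls were higher against 51.0%. The replicate numbers did not pair the samples: correlations between same-numbered samples were -0.01, 0.10 and -0.05. With the replicate number as a block 4802 genes passed, 4679 of them in common, and 15 of the named genes lost their call. For the difference of the TAC effects, 0 genes passed in the other settings and 166 with array weights; without 1 array the count ran from 0 to 8, with 8 without wild-type TAC array 4 and 1 without wild-type TAC array 1. The cause was not tested.

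Of 298 named genes that passed, 62 lost the call without at least 1 knockout array. The mean of probe sets ended 21 calls, among them those of Esrra, Stat3, Sod1 and Synpo2, and turned Fars2 to 0.06 (adjusted p = 0.758 in limma), as its probe sets disagree. Without probe sets of the classes x_at and s_at Sox17 read -0.55. Smaller differences on probe sets not used were also read for, among others, Zfp697 (0.63), Uhrf1 (0.42), Sdc4 (0.53), Pdgfrb (0.10) and Per3 (0.034 to 0.608). Signal over background limits the dim genes of division, and folds there are bounds; at the bright end, as for Myh6, brightness can level off. No setting separates surgery from the time of the assay.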
